A study of Mus musculus with 8 samples.

Results

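Aminoacyl-tRNA synthetases are the enzymes that join each amino acid to its tRNA, and their mRNAs were measured here in mouse liver after ischemia/reperfusion (I/R). The 36 genes were taken by symbol from the 54532 genes of the deposited expression table: 20 encode enzymes of the cytosol and 16, whose symbols end in 2, encode enzymes of the mitochondrion. Livers came from 4 METTL3-HKD mice, with hepatocyte-specific knockdown of the m6A RNA methyltransferase METTL3 (METTL3 flox/-; Alb-iCre), and from 4 METTL3-Flox mice (METTL3 flox/flox), which were littermates without the Cre. Every mouse underwent 1 h of ischemia and then 6 h of reperfusion, so no liver without injury was part of the comparison, and the mice's age is not given in the labels. The albumin promoter restricts the Cre to hepatocytes, whereas the RNA came from whole liver tissue of a partial warm I/R model, and the groups also differed in the floxed locus itself (flox/- against flox/flox). The question was whether the synthetase mRNAs, and the cytosolic and mitochondrial sets separately, differed between METTL3-HKD and METTL3-Flox livers.

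Apart from Eprs, which serves both glutamate and proline, each synthetase recognises 1 amino acid and the tRNAs that carry it. The product is what the ribosome consumes. Mitochondria translate their own mRNAs and use a largely separate set of synthetases that are encoded in the nucleus and imported. Gars (glycine) and Kars (lysine), counted here as cytosolic, also serve the mitochondrion. Several cytosolic enzymes sit together in the multi-synthetase complex, which is held by scaffold proteins. In amino acid shortage or endoplasmic reticulum stress, the transcription factor ATF4 is known to raise many cytosolic synthetase genes together with amino acid transporters and biosynthetic enzymes.

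Values are FPKM (fragments or reads scaled to gene length and library size), already scaled between libraries by the authors, and depth on genes was 15861245 to 18434488 reads per library. All 36 synthetases passed the minimum mean of 0.1 FPKM and were among the 16645 genes tested with limma. Mettl3 itself was at 1.56, 1.39, 1.17 and 1.20 FPKM in METTL3-HKD livers and at 1.84, 1.16, 1.45 and 1.54 FPKM in METTL3-Flox livers, which overlapped (log2 fold change -0.16, adjusted p = 0.556, limma), a value for the whole gene that does not isolate the floxed part. Defining hepatocyte transcripts were abundant in all livers. The summed level of 8 markers was 22404 to 33108 FPKM in METTL3-HKD and 29422 to 33685 FPKM in METTL3-Flox livers. Their median log2 fold change was -0.42, and 1 of the 8 fell. Neutrophil markers had the largest median difference of the 7 cell type lists (log2 fold change 4.06): 7 of 7 were higher in METTL3-HKD livers, with sums of 331 to 1612 FPKM against 12.9 to 44.5 FPKM. In addition, 3 of 4 cholangiocyte markers were higher, 2 of 6 macrophage and 2 of 4 stellate cell markers were lower, and no endothelial or testable lymphocyte marker (5 and 2 genes) passed the threshold. Over all genes tested, 9.05% were higher and 6.63% were lower at this threshold, an adjusted p under 0.05. None of these markers was at 0 in all livers, and the part of these cells in the synthetase values was not tested. In bulk tissue, fewer cells of a type and less RNA per cell cannot be told apart.

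The synthetase mRNAs differed little between the groups. At an adjusted p under 0.05 (limma, Benjamini-Hochberg over all 16645 genes), 1 of 36 was higher in METTL3-HKD livers (Rars, arginine), a share of 2.78% beside 9.05% of all genes tested, and 1 of 36 was lower (Vars2, mitochondrial valine), beside 6.63% of all genes. None reached a 2-fold difference in addition, a criterion that 6.22% of all genes met. At an unadjusted p under 0.05, 8 of 36 (22.2%) passed, against 31.9% of all genes. The 4 METTL3-HKD values all exceeded the 4 METTL3-Flox values for 5 synthetases (13.9%, all genes 12.7%) and were all lower for 1 (2.78%, all genes 9.95%).

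The size of the differences was narrow as well. Log2 fold changes ran from -0.44 to 0.47, with 24 above and 12 below 0, and none of the 36 exceeded 0.5 in either direction, whereas 30.7% of all genes did. That share includes genes of low level. It was 23.9% with a minimum mean of 1 FPKM and 13.6% with a pseudocount of 1 FPKM, with no tested synthetase above 0.5. When scaled to the reads on genes, 7 synthetases (Farsa, Farsb, Hars, Lars2, Mars2, Pars2 and Rars) and 34.5% of all genes exceeded it. Leaving out 1 liver put 0 to 3 above it, with Lars2, Pars2 and Rars above it without METTL3-Flox replicate 4. The standard errors of the synthetases had a median of 0.105, against 0.196 over all genes. The 95% confidence interval lay within 2-fold in either direction for all 36 and within 1.5-fold for 29. The median log2 fold change was 0.10 for the cytosolic and 0.011 for the mitochondrial enzymes, beside -0.0028 over all genes, whose middle 50% ran from -0.29 to 0.32.

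**Figure D1:**
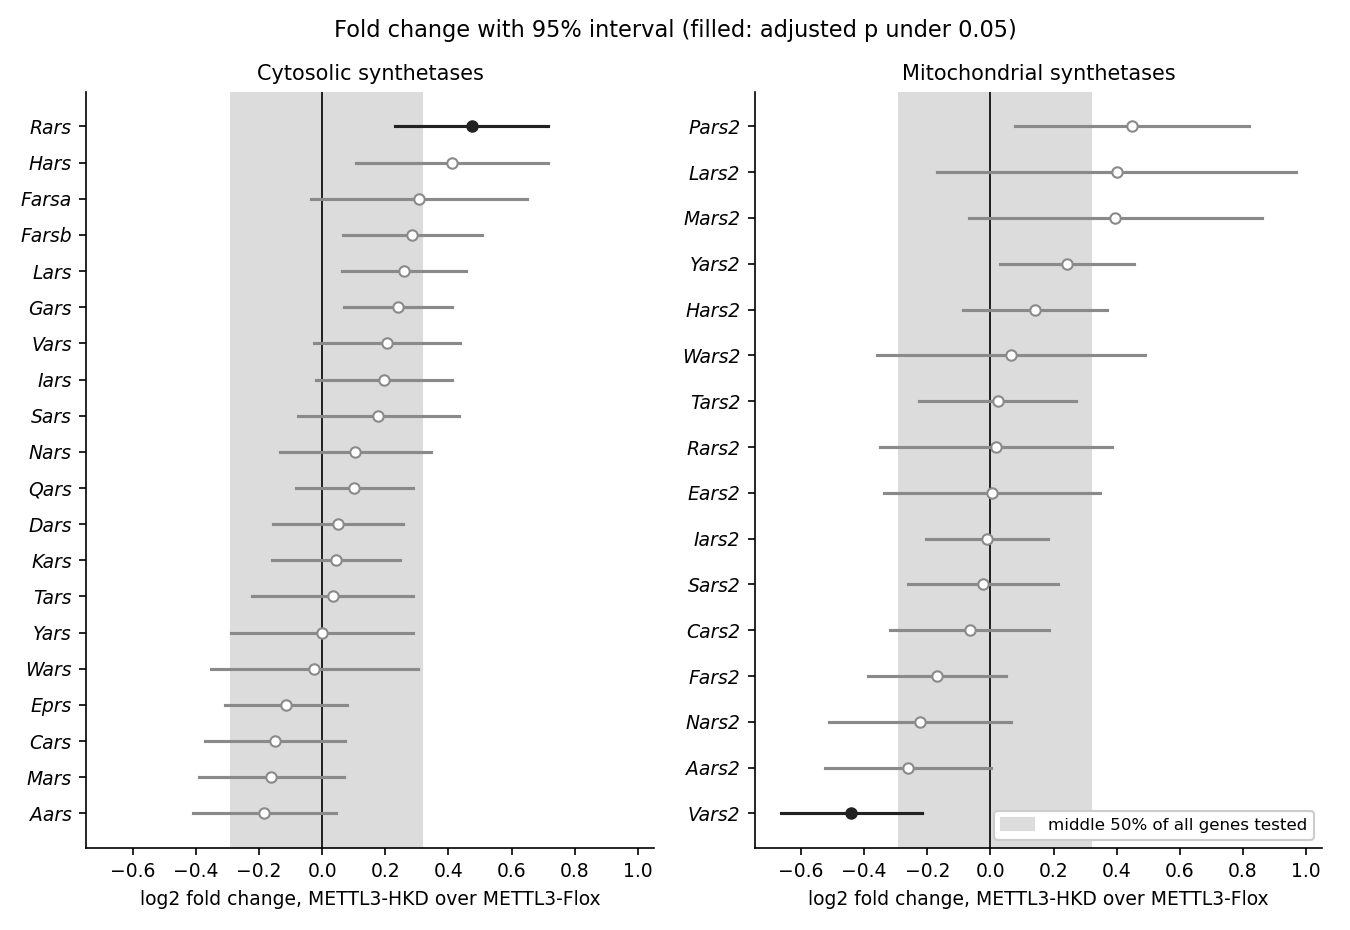
Log2 fold change (METTL3-HKD over METTL3-Flox) of each synthetase with its 95% confidence interval, for 20 cytosolic (left) and 16 mitochondrial enzymes (right). Filled points passed an adjusted p under 0.05 (Rars at 0.47, Vars2 at -0.44), and the grey band is the middle 50% of the 16645 genes tested.

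Among the cytosolic enzymes, Rars (arginyl-tRNA synthetase, a member of the multi-synthetase complex) was the one that rose. It measured 15.3, 13.4, 14.3 and 13.6 FPKM in the METTL3-HKD livers and 11.4, 9.28, 8.90 and 11.3 FPKM in the METTL3-Flox livers. The groups did not overlap, with the lowest METTL3-HKD liver at 13.4 FPKM and the highest METTL3-Flox liver at 11.4 FPKM. A gap of similar size lay within the METTL3-Flox livers, between 9.28 and 11.3 FPKM. The level was 1.39-fold higher (95% interval 1.17 to 1.64, log2 fold change 0.47 ± 0.107 SE, adjusted p = 0.0220, limma). With 4 livers a group, an exact two-sided permutation test cannot go below p = 0.0286, the value that Rars gave. The call was lost without METTL3-HKD replicate 1, METTL3-Flox replicate 2 or METTL3-Flox replicate 3 (adjusted p = 0.0616, 0.0572 and 0.0614, limma).

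Gars and Lars were separated between the groups without passing the adjusted threshold. Gars, the glycyl enzyme, which also serves the mitochondrion, was at 20.5, 19.7, 20.9 and 21.0 FPKM in METTL3-HKD and at 18.3, 17.3, 16.1 and 17.7 FPKM in METTL3-Flox livers (log2 fold change 0.24 ± 0.0758 SE, adjusted p = 0.0618, limma). Lars, the leucyl enzyme, which is also known as a leucine sensor upstream of mTORC1, was at 12.3, 12.3, 11.6 and 13.5 FPKM against 10.2, 11.2, 9.47 and 10.6 FPKM (log2 fold change 0.26, adjusted p = 0.0749, limma). The levels were 1.18-fold and 1.20-fold higher, and in neither gene did the groups overlap.

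Hars and Farsb had an unadjusted p under 0.05 but overlapped in 1 liver or more. Hars (histidine) was at 23.0 to 28.3 FPKM in METTL3-HKD livers, and METTL3-Flox replicate 1, at 24.6 FPKM, lay inside that range while the other METTL3-Flox livers were at 16.2 to 20.4 FPKM (log2 fold change 0.41, adjusted p = 0.0677, limma). Farsb, the beta subunit of cytosolic phenylalanyl-tRNA synthetase, was at 16.5 to 20.4 FPKM against 14.2 to 16.6 FPKM (0.29, adjusted p = 0.0764). Farsa, the alpha subunit, pointed the same way with a wider spread among controls, 5.02 to 5.89 FPKM against 3.45 to 5.54 FPKM (0.31, adjusted p = 0.199). Without METTL3-Flox replicate 1, Hars and Gars passed the threshold (adjusted p = 0.0250 and 0.0465, limma), as did Yars2 of the mitochondrial set (0.0466).

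The remaining 14 cytosolic enzymes overlapped between the groups and had log2 fold changes of -0.18 to 0.21. Vars (valine), Iars (isoleucine) and Sars (serine) were nominally highest at 0.21, 0.20 and 0.18. Nars (asparagine), Qars (glutamine), Dars (aspartate), Kars (lysine), Tars (threonine) and Yars (tyrosine) lay between 0 and 0.11. Wars, the tryptophanyl enzyme known to be inducible by interferon gamma, gave -0.025. Eprs (glutamate and proline in 1 polypeptide), Cars (cysteine), Mars (methionine) and Aars (alanine) gave -0.11, -0.15, -0.16 and -0.18. Of these, Aars was at 21.2 to 22.8 FPKM in METTL3-HKD livers and at 22.1 to 29.3 FPKM in METTL3-Flox livers, with an adjusted p of 0.242 (limma).

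Values were similar inside and outside the multi-synthetase complex. The 8 members measured here (Dars, Eprs, Iars, Kars, Lars, Mars, Qars, Rars) had a median log2 fold change of 0.076 with 1 higher, and the 12 other cytosolic genes had 0.14 with none past limma's adjusted threshold, and an unadjusted p under 0.05 was found for 2 of 8 and 3 of 12. By catalytic fold, the 18 class I genes had a median of 0.041 (1 higher, 1 lower) and the 17 class II genes 0.051 (none called by limma), with 4 genes of each class at an unadjusted p under 0.05. Eprs, which joins a domain of each class, was counted in neither.

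In the mitochondrial set, Vars2 (valine) was the gene that fell. It measured 2.51, 2.65, 2.90 and 2.79 FPKM in METTL3-HKD livers and 3.47, 3.64, 3.66 and 4.11 FPKM in METTL3-Flox livers. No METTL3-HKD liver reached the lowest METTL3-Flox liver. The level was 0.737-fold (95% interval 0.631 to 0.860, log2 fold change -0.44 ± 0.0991 SE, adjusted p = 0.0215, limma). The call was lost with a replicate block (adjusted p = 0.0563), and scaling to the total reads on genes, described below, brought the difference to -0.23 (adjusted p = 0.242). It was also lost without METTL3-HKD replicate 1 or 2 or METTL3-Flox replicate 3 or 4 (adjusted p = 0.0548 to 0.0567).

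Pars2 and Yars2 were higher in every METTL3-HKD liver without passing the adjusted threshold. Pars2, the mitochondrial prolyl enzyme, was at 1.45, 1.21, 1.31 and 1.22 FPKM against 1.02, 0.940, 0.680 and 1.08 FPKM (log2 fold change 0.45 ± 0.164 SE, adjusted p = 0.0942, limma), on 32 to 90 reads per library. Yars2, the tyrosyl enzyme, was at 7.25, 7.56, 7.07 and 7.69 FPKM against 7.06, 6.01, 5.62 and 6.31 FPKM (0.24, adjusted p = 0.111). The METTL3-HKD livers were close together in Yars2, and the lowest of them exceeded the highest METTL3-Flox liver by a margin of the third digit.

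Lars2, the leucyl enzyme of the mitochondrion, had the widest spread of the 36 among METTL3-HKD livers (coefficient of variation 31.2%), whereas among METTL3-Flox livers (17.8%) several members, such as Farsa (21.8%), varied more. It was at 8.53, 18.7, 19.0 and 16.3 FPKM in METTL3-HKD and at 9.66, 11.9, 10.001 and 14.1 FPKM in METTL3-Flox livers. METTL3-HKD replicate 1 was the lowest of all 8 livers, while the other METTL3-HKD livers were the highest. The comparison over all livers did not pass (log2 fold change 0.40 ± 0.252 SE, adjusted p = 0.308, limma), and without METTL3-HKD replicate 1 it did (0.66, adjusted p = 0.0376). Lars2 accounted for most of the low mitochondrial sum of METTL3-HKD replicate 1 (55.4 FPKM against 66.2 to 69.8 FPKM), which without Lars2 was 46.9 FPKM against 47.5 to 50.8 FPKM.

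The other 12 mitochondrial enzymes overlapped between the groups, and none had an unadjusted p under 0.05. Mars2 (methionine), the least abundant at 0.378 to 0.657 FPKM against 0.301 to 0.407 FPKM, gave 0.40 (adjusted p = 0.219). Hars2 (histidine) gave 0.14, and Wars2 (tryptophan), Tars2 (threonine), Rars2 (arginine), Ears2 (glutamate), Iars2 (isoleucine), Sars2 (serine) and Cars2 (cysteine) lay between -0.066 and 0.066. Fars2 (phenylalanine), Nars2 (asparagine) and Aars2 (alanine) were at -0.17, -0.22 and -0.26. For Aars2 the METTL3-HKD livers had 2.64 to 3.30 FPKM and the METTL3-Flox livers 3.11 to 3.96 FPKM (adjusted p = 0.158, limma).

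By FPKM, levels spanned a wide range across the family, and cytosolic enzymes were mostly the more abundant. The order of genes, the sums and the ratios between genes depend on the deposited gene lengths, from 1987 bases (Hars) to 18102 bases (Eprs). Eprs had 2031 to 2796 reads per library and Hars 489 to 1130, yet Hars was the higher in FPKM. How far these lengths match the transcripts present was not tested. Nars was the most abundant at 68.9 FPKM over the 8 livers and alone carried 21.2 ± 1.39% (SD, n = 4) of the summed cytosolic level in METTL3-HKD and 21.3 ± 0.820% (n = 4) in METTL3-Flox livers. The next gene, Aars, was at 23.7 FPKM, and its highest liver lay below the lowest Nars liver. From Aars down to Ears2 each gene overlapped its neighbour in the order. The only other neighbours without overlap were Ears2 (2.98 FPKM) and Cars2 (2.08 FPKM), by a narrow margin. The lowest Ears2 liver was at 2.50 FPKM and the highest Cars2 liver at 2.42 FPKM. All cytosolic enzymes were at 4.12 FPKM (Cars) or more. The mitochondrial enzymes ran from 0.432 FPKM (Mars2) to 13.5 FPKM (Lars2), with Iars2, Yars2 and Hars2 next at 7.62, 6.82 and 5.40 FPKM.

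**Figure D2:**
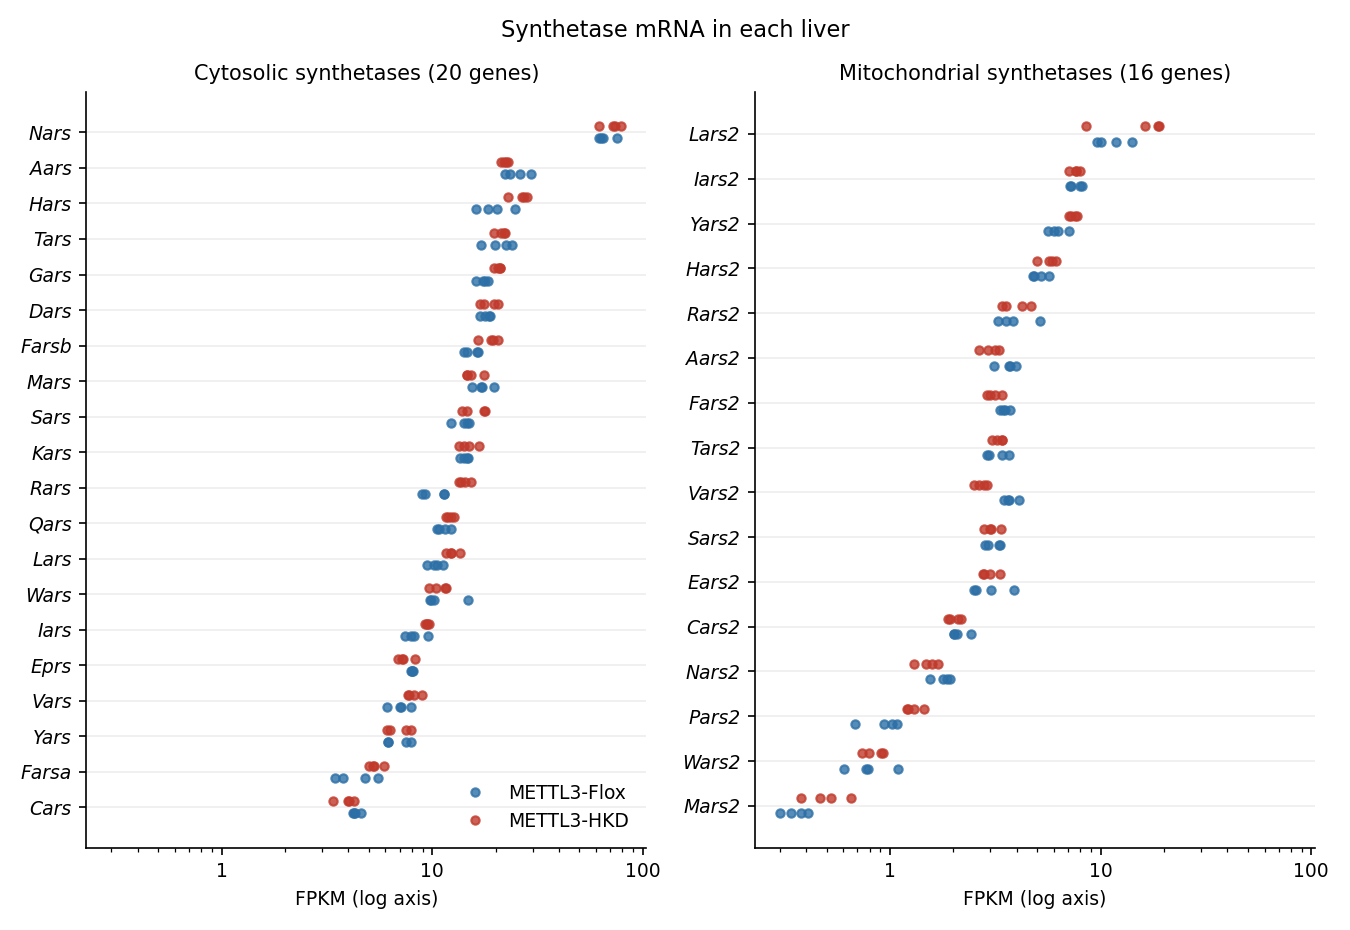
FPKM of each synthetase in every liver on a log axis, for METTL3-Flox (blue, 4 livers) and METTL3-HKD (red, 4 livers), with genes ordered by mean level within each compartment. Nars stands alone at the top of the cytosolic set (68.9 FPKM), Mars2 is lowest (0.432 FPKM), and the 4 livers of Lars2 in METTL3-HKD spread from 8.53 to 19.0 FPKM.

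Summed over the genes, the cytosolic set was at 347, 334, 319 and 344 FPKM in METTL3-HKD and at 343, 293, 298 and 309 FPKM in METTL3-Flox livers. The 3 METTL3-Flox livers other than replicate 1 lay below all METTL3-HKD livers, and replicate 1 lay among them. The mitochondrial set was at 55.4 to 69.8 FPKM against 55.9 to 65.0 FPKM, and without Lars2 at 46.9 to 50.8 FPKM against 45.9 to 51.5 FPKM. The ratio of the cytosolic to the mitochondrial sum was 5.26 ± 0.717 (SD, n = 4) in METTL3-HKD and 5.14 ± 0.400 (n = 4) in METTL3-Flox livers, a difference smaller than either spread.

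The balance within an amino acid was examined in 17 pairs of a cytosolic with a mitochondrial gene, covering 16 amino acids. The cytosolic gene was the more abundant in all 8 livers in 13 of 17 pairs. The exceptions were Lars, Yars, Iars and Farsa, whose ratio to the mitochondrial gene fell on either side of 1. The widest ratio was that of Mars to Mars2, at 26.8 to 38.5 in METTL3-HKD and 38.0 to 56.7 in METTL3-Flox livers. It rests on deposited lengths of 3423 bases for Mars and 11294 bases for Mars2, used alike in every liver.

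In 13 of 17 pairs the ratios of the groups overlapped, and 4 pairs (3 higher, 1 lower) did not. Of single genes, 12.7% separated the groups upwards and 9.95% downwards, and no such share was computed for ratios of other gene pairs. The valine ratio, Vars to Vars2, was 3.56, 3.11, 2.67 and 2.74 in METTL3-HKD livers and 2.06, 1.68, 1.92 and 1.93 in METTL3-Flox livers. The arginine ratio, Rars to Rars2, was 4.48, 3.77, 3.05 and 3.24 against 2.22, 2.85, 2.50 and 2.95. The phenylalanine ratio for the beta subunit, Farsb to Fars2, was 5.52 to 6.59 against 3.92 to 4.79, whereas Farsa to Fars2 overlapped. In the opposite direction, the proline ratio, Eprs to Pars2, was 5.01 to 6.83 against 7.48 to 11.7. Unlike a single gene's FPKM, such a ratio within a library does not depend on how the libraries were scaled. Rars, Vars2 and Pars2 also separated the groups as single genes, so 3 of the 4 separated pairs partly restate those values. Eprs and Fars2 each enter more than 1 pair. These ratios are given as a description, without a test.

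**Figure D3:**
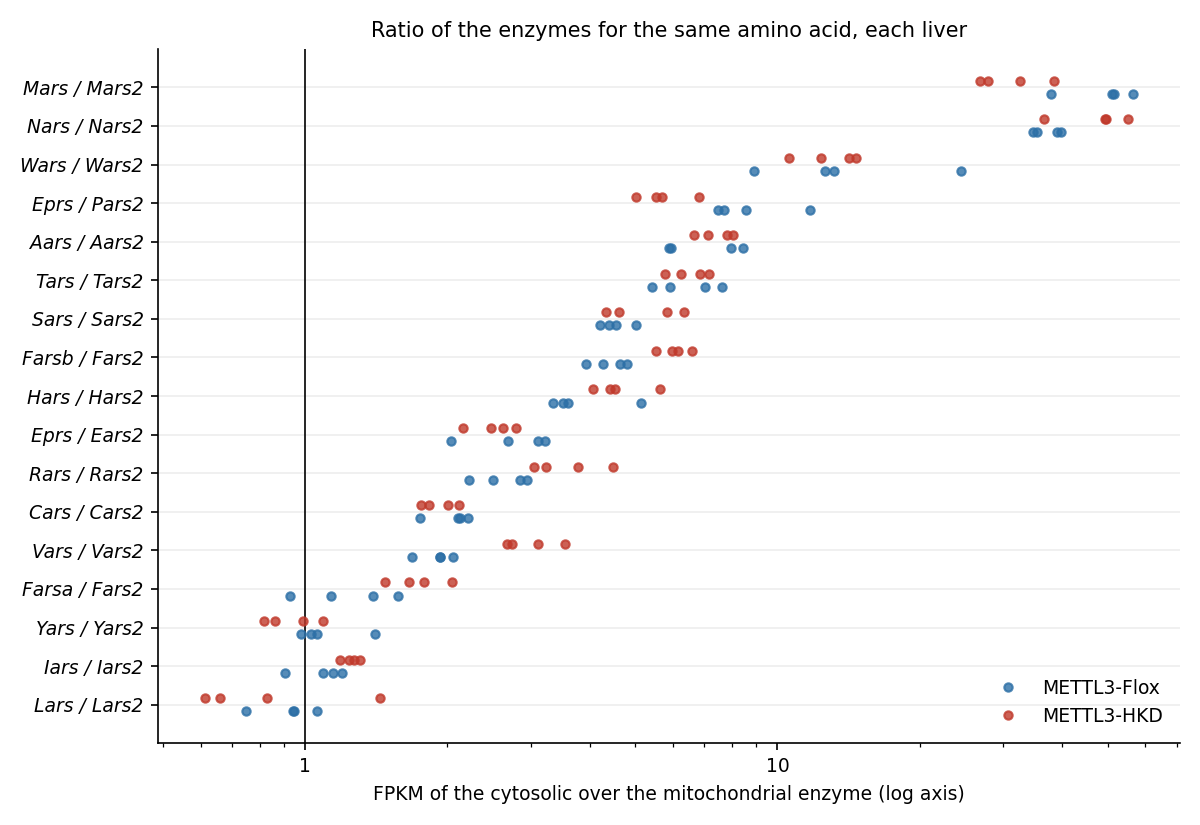
Ratio of cytosolic to mitochondrial FPKM for the 17 pairs in each liver (log axis, METTL3-Flox blue, METTL3-HKD red), with a line at a ratio of 1. The groups separate for Vars/Vars2, Rars/Rars2 and Farsb/Fars2, which are higher in METTL3-HKD, and for Eprs/Pars2, which is lower.

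Of the proteins that assist the synthetases, 12 of 13 listed genes were testable and 2 were higher in METTL3-HKD livers, with none lower, beside 9.05% and 6.63% of all genes tested. Eef1e1, the scaffold protein AIMP3 of the multi-synthetase complex, was at 4.47, 3.97, 3.55 and 3.96 FPKM against 3.41, 2.09, 1.92 and 2.35 FPKM, without overlap (log2 fold change 0.72 ± 0.175 SE, adjusted p = 0.0282, limma). Trnt1, which adds the CCA end that every tRNA needs before charging, was at 4.69, 5.26, 4.80 and 4.68 FPKM against 3.84, 4.08, 3.59 and 3.79 FPKM, again without overlap (0.34, adjusted p = 0.0364). The other scaffolds, Aimp1 and Aimp2, gave -0.0057 and 0.28 (adjusted p = 0.982 and 0.355). The subunits Gatb, Gatc and Qrsl1, which complete mitochondrial glutaminyl-tRNA, did not pass. The median of the 12 was 0.026. Leaving out 1 liver at a time gave 0 to 3 higher, with 0 without any one of METTL3-HKD replicates 1, 2 and 4 or METTL3-Flox replicates 2, 3 and 4 (limma).

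Genes that act on the charged tRNA did not pass the threshold in either compartment. None of 6 cytosolic delivery and elongation factors (Eef1a1, Eef1b2, Eef1d, Eef1g, Eef2, Eif5a) was called by limma, with a median log2 fold change of -0.065 and none with an unadjusted p under 0.05. Eef1a1 was still lower in every METTL3-HKD liver, at 1538 to 1640 FPKM against 1744 to 1869 FPKM (-0.16, adjusted p = 0.462, limma). None of 8 mitochondrial factors (Tufm, Tsfm, Gfm1, Gfm2, Mtif2, Mtif3, Mtrf1, Mrrf) was called, with a median of -0.077 and 1 unadjusted p under 0.05. Gfm2 was likewise lower in every METTL3-HKD liver, at 3.34 to 3.91 FPKM against 4.11 to 4.57 FPKM (-0.24, adjusted p = 0.112, limma). Such separation downwards was found for 9.95% of all genes. Of the 13 mRNAs that the mitochondrial ribosome translates, 1 was lower and none was higher, beside 6.63% and 9.05% of all genes tested. Both mitochondrial rRNAs were higher (limma), with a summed level of 951 to 3353 FPKM in METTL3-HKD and 457 to 729 FPKM in METTL3-Flox livers, without overlap. The part of RNA composition in the values of the mitochondrial set was not tested.

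The amino acid and stress response genes attributed to ATF4 held more calls than the synthetases. Of 28 tested, 11 were higher and 3 lower in METTL3-HKD livers (limma, adjusted p under 0.05), shares of 39.3% and 10.7% beside 9.05% and 6.63% of all genes, with a median log2 fold change of 0.48. The higher group held amino acid transporters and serine synthesis enzymes. The cystine transporter Slc7a11 was at 2.20, 0.439, 0.744 and 1.46 FPKM in METTL3-HKD livers and at 0 to 0.0533 FPKM in METTL3-Flox livers (3.30 on the log2(FPKM + 0.1) scale, adjusted p = 0.00412). Its heavy chain Slc3a2 was at 19.0 to 30.0 FPKM against 9.19 to 14.2 FPKM (1.01, adjusted p = 0.0108), and Slc7a5, a leucine transporter that pairs with the same heavy chain, gave 1.00 (adjusted p = 0.0194). Slc3a2 and Slc7a5 are named after their values were seen.

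The stress factor Atf3 had the largest difference on the list, 19.4 to 30.5 FPKM against 0.519 to 1.71 FPKM (4.50, adjusted p = 0.000589), and the phosphatase subunit Ppp1r15a was higher too (1.97, adjusted p = 0.00412). The transcription factor Atf5 was lower, 107 to 124 FPKM against 179 to 287 FPKM (-1.03, adjusted p = 0.00523). Cth was lower too, at 28.6 to 41.8 FPKM against 54.3 to 63.4 FPKM (-0.76, adjusted p = 0.0117, limma). So was Herpud1 (-0.81, adjusted p = 0.0292, limma), and Cth and Herpud1 are named after their values were seen. Atf4 itself (0.29, adjusted p = 0.221), Ddit3 (0.53, adjusted p = 0.243), Trib3 (0.18, adjusted p = 0.642) and the asparagine synthetase Asns (-0.48, adjusted p = 0.309) did not pass. Asns, which makes the amino acid that Nars charges, was at 3.62 to 6.81 FPKM in METTL3-HKD and 3.84 to 10.9 FPKM in METTL3-Flox livers. Leaving out 1 liver at a time gave 7 (without METTL3-HKD replicate 1) to 14 higher and 2 to 4 lower on this list. The counts were 7 and 2 with a replicate block, 7 and 3 of 24 with a minimum of 1 FPKM, and 14 and 2 when scaled to the reads on genes. All 7 neutrophil markers were higher in the same livers, and their part in the values of this list was not tested.

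**Figure D4:**
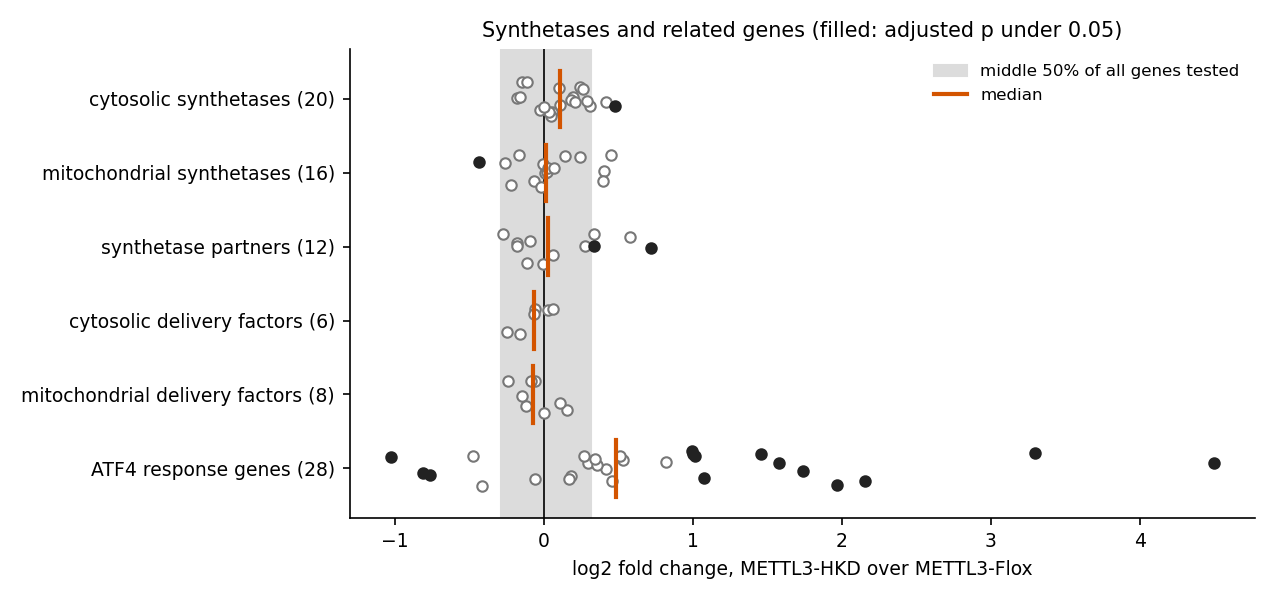
Log2 fold change of each tested gene in 6 groups, with filled points for an adjusted p under 0.05, an orange line at the group's median and a grey band for the middle 50% of all genes tested. On the deposited scale the synthetases lie within 0.5 of 0, while ATF4 response genes run from -1.03 to 4.50.

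The interferon gamma response genes, listed because Wars is among the targets of that cytokine, gave 0 higher and 4 lower of 19 tested (Psmb9, Irgm1, Psmb8 and Irf1, limma), beside 9.05% and 6.63% of all genes. At an unadjusted p under 0.05, a share of 31.9% over all genes, 7 were lower and 1 was higher (Cxcl10, a chemokine named after its values were seen, log2 fold change 1.14). The count of lower genes at the adjusted threshold ran from 0 without METTL3-Flox replicate 3 to 9 without METTL3-HKD replicate 2, and was 0 when scaled to the reads on genes. Wars was at 11.6, 9.62, 10.4 and 11.6 FPKM in METTL3-HKD and at 14.8, 9.75, 9.88 and 10.2 FPKM in METTL3-Flox livers. METTL3-Flox replicate 1 was the highest of all, and the other 3 METTL3-Flox livers lay inside the METTL3-HKD range.

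The sequence around the start of the synthetase genes was examined for the element that ATF4 with a C/EBP partner is known to bind, TGATGNAA, which reads TTNCATCA on the other strand. RefSeq windows of 250 bases before to 50 bases after the transcript start (GRCm38.p6) matched 27 of the 36 genes, 13 cytosolic and 14 mitochondrial, and Cars, Hars, Hars2, Lars, Nars, Pars2, Rars, Vars and Wars had no entry. The element was in the window of 5 of 13 cytosolic genes (38.5%) and 0 of 14 mitochondrial genes, beside 9 of 26 ATF4 response genes (34.6%) and 1219 of 27025 genes in the whole table (4.51%). The cyclic AMP element TGACGTCA, searched on both strands too, was in no synthetase window and in 2.03% of all genes' windows. The stretches below, written 5′ to 3′ along the gene's strand with the match in capitals, show the match nearest the start in the 5 cytosolic genes that carry the element, and in 3 ATF4 response genes for comparison.
Aars, chr8:111033841-111033868, plus strand: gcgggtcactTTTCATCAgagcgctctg
Gars, chr6:55037961-55037988, plus strand: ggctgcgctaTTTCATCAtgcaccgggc
Iars, chr13:49682127-49682154, plus strand: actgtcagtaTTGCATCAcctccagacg
Tars, chr15:11399656-11399683, minus strand: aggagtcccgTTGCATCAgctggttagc
Yars, chr4:129189896-129189923, plus strand: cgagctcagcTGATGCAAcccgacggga
Atf3, chr1:191183426-191183453, minus strand: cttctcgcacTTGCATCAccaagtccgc
Slc7a11, chr3:50443643-50443670, minus strand: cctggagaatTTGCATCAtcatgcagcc
Asns, chr6:7693215-7693242, minus strand: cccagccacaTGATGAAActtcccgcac

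The matches shown began at transcript base 10 in Aars, 30 bases before the start in Gars, 15 before it in Tars, and at transcript bases 8 and 4 in Iars and Yars. The 5 genes gave values on both sides of 0. Gars and Iars gave log2 fold changes of 0.24 and 0.20, Tars gave 0.033, Yars lay within 0.01 of 0 and Aars gave -0.18, and none passed the adjusted threshold (limma). Among the 9 ATF4 response genes with the element, Atf3, Slc7a11 and Vldlr were higher and Herpud1 was lower (limma). Asns, Chac1, Fgf21, Nupr1 and Trib3 did not pass. Only Atf3, Slc7a11 and Asns of these are printed above. The window of Vars2 held no match. A match of letters is a description and not a bound site.

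Some members lie close to other genes, which bears on their values because the strand setting of the counting is not given in the sources used here. Exon bases were shared with another gene for 13 of the 36 in GENCODE M21. Hars and Hars2 on chromosome 18 start 197 bases apart on opposite strands and share 195 exon bases, so reads there cannot be told apart without strand. Their transcripts were also alike in sequence over 1227 bases (75.6% identity). Iars2 shares 2034 bases (22.9% of its exon length) with Rab3gap2, Mars shares 68 bases with Ddit3, and Vars2 shares 465 bases with Gm20483, which was listed at 0 in all livers. Aars shares 1326 bases (14.3%) with Exosc6 on the same strand, so there strand would not separate the reads. Exosc6 was also listed at 0 in all livers. Rars shared none.

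The scaling of the libraries set where 0 lies. The reads on genes were divided by the library size behind the deposited FPKM, relative to the geometric mean of the libraries. This factor was 0.862 to 0.998 in METTL3-HKD and 0.998 to 1.20 in METTL3-Flox libraries. Replicate 4 was at 0.998 in both groups. Scaling instead to the total reads on genes raised the all-gene median log2 fold change to 0.19. The calls turned from 1506 higher and 1104 lower to 2303 and 374. On that scale the cytosolic and mitochondrial medians were 0.32 and 0.22, or 0.13 and 0.029 above that of all genes, and 7 synthetases were higher (Rars, Farsb, Gars, Hars, Lars, Pars2 and Yars2) with none lower. The difference between the compartments' medians was 0.098 there and 0.092 on the deposited scale.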

How the data were processed

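RNA was extracted from 8 livers (4 METTL3-HKD and 4 METTL3-Flox, grouped by the sample titles), and libraries were made with the SMARTER mRNA-Seq kit. The authors deposited FPKM per gene with gene lengths, on GRCm38 (mm10) per the submitters' processing notes. The aligner, counter, annotation and strand setting are not given in the sources used here. Multiplied by gene length, the deposited FPKM gave whole reads for 100% of non-zero values (tolerance 0.05 reads), with a library size that had been scaled between samples. Nothing says how the mice were distributed over preparation days, so p-values measure only the spread between these livers.

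Genes had to average 0.1 FPKM or more over the livers, log2(FPKM + 0.1) was compared with limma 3.58.1 in R 4.3.3 (moderated, with a mean-variance trend, two-sided), and p-values were adjusted by Benjamini-Hochberg over 16645 genes. Fold changes are on that scale and understate the change of low genes. On simulated data, 184 of 200 changed genes (median absolute log2 fold change 1.48) and 3 others of 16304 were called. Exact permutation tests used the 70 arrangements of the livers. Transcripts were aligned with blastn 2.17.0. All 36 synthetases are named. From other lists, the rule was to name up to 4 genes with the smallest adjusted p among those called. Atf4, Ddit3, Asns, Trib3, Aimp1, Aimp2, Eef1e1 and Mettl3 were added to these. Outside this rule, Eef1a1 and Gfm2, which were not called, are given with values after these were seen, as are the genes marked so. The ATF4 response genes with the element are named too. The members, the gene lists and the motifs were chosen with earlier results of these data known, and the motif search in ATF4 response genes was added after the synthetase windows had been searched.

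As alternatives, the pseudocount or the minimum was set to 1 FPKM or the minimum dropped, libraries were rescaled (median of ratios, or total reads on genes), the trend was omitted, sample weights or a replicate block were added, the table was restricted to protein-coding genes, voom was run on the reads rebuilt from FPKM, and each liver was left out in turn.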

Additional observations from a re-analysis of the deposited data

Results flagged for a closer look

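In the 72 checks of single livers against the rest of their group (36 genes in 2 groups), 2 values stood apart by Dixon's criterion, both in METTL3-Flox replicate 1, and chance alone marks about 1 in 20 such groups. Cars was at 4.60 FPKM there, while the other METTL3-Flox livers were at 4.23 to 4.28 FPKM. Wars was at 14.8 FPKM, while the others were at 9.75 to 10.2 FPKM. Without this liver the log2 fold change of Wars was 0.12 in place of -0.025. METTL3-Flox replicate 1 also had the highest summed cytosolic level of its group (343 FPKM against 293 to 309 FPKM).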

How the results depend on the processing

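The count of synthetases called was 1 higher and 1 lower, and stayed so with a pseudocount of 1 FPKM, a minimum of 1 FPKM or none, median-of-ratios scaling, no trend, protein-coding genes only, and voom on the rebuilt reads. Sample weights gave 4 higher and 1 lower, and scaling to the reads on genes gave 7 and 0. With the replicate block it was 1 and 0. The numbers in the labels did not pair the livers (correlations of same-numbered livers' deviations -0.084 to 0.071), so the block is a check of a shared number and not of a shared mouse or day. Leaving out 1 liver gave 0 to 4 higher and 0 to 1 lower, and medians of 0.078 to 0.14 for the cytosolic enzymes, -0.036 to 0.030 for the mitochondrial enzymes and 0.068 to 0.17 for their difference. Scaling to the reads on genes moved the medians to 0.32 and 0.22, since that scaling moves all genes. Over all genes, the alternatives gave 737 to 2303 higher and 347 to 1339 lower.

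Some single values changed sign. With scaling to the reads on genes, which raised the all-gene median to 0.19, Aars became 0.032, Cars 0.062, Eprs 0.10, Mars 0.055, Wars 0.19, Cars2 0.14, Fars2 0.040, Iars2 0.20 and Sars2 0.19. With sample weights, Wars became 0.053, Yars -0.019 and Sars2 0.016. Leaving out 1 liver gave ranges across 0 of -0.015 to 0.091 for Kars, -0.057 to 0.10 for Tars, -0.082 to 0.12 for Wars, -0.065 to 0.065 for Yars, -0.070 to 0.13 for Ears2, -0.041 to 0.021 for Iars2, -0.066 to 0.15 for Rars2, -0.071 to 0.013 for Sars2, -0.026 to 0.084 for Tars2 and -0.051 to 0.20 for Wars2. The cause of the changes under sample weights and without single livers was not tested. Reads per library limit the least abundant members most (Pars2 32 to 90 reads, Wars2 51 to 105, Mars2 55 to 134), and intervals cover 4 livers a group.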
